A study of Brassica rapa subsp. rapa with 9 samples.

Results

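TUA5 and TUB6 are the names that the deposited annotation gives to 18 cDNA probes of a turnip array, 9 for each name, out of 2507 probes tested, and they are 2 of 1007 Arabidopsis gene names on it. The 18 were taken by name alone, as every probe in use whose annotation ends in TUA5 or TUB6 in brackets, and all 18 passed the filter on dim probes. The RNA came from swollen hypocotyls of a red turnip (Brassica rapa subsp. rapa, 'Tsuda'), from surface tissue peeled off to a depth of roughly 1 to 2 mm. Hypocotyls under UV-B, UV-A or blue light for 24 hours were each set against hypocotyls kept in darkness, on 3 arrays per light and 9 arrays in all. On every array the exposed sample carried Cy3 and the dark sample Cy5, with no dye swap, and each replicate pooled RNA of over 5 plants according to the design text. Lights were taken from the sample titles, since the description field gives blue for all 9. The sources used here do not give plant age or light dose, nor whether arrays of one replicate number shared a dark sample.

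Tubulins are the building blocks of microtubules. An alpha-tubulin, such as the product of TUA5, pairs with a beta-tubulin, such as the product of TUB6, and the pairs join end to end into the microtubule wall. In plant cells, microtubules below the plasma membrane guide the enzymes that lay down cellulose, and so the direction in which cells widen, while others form the spindle at division. Both genes belong to families of close relatives in Arabidopsis, so that a cDNA probe can also bind RNA of other family members, and the extent of this was not tested. The names are best Arabidopsis matches of the clones, and probes of one name may stem from one turnip gene or from several. In tissue RNA, fewer cells of a type and less RNA per cell cannot be told apart.

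The unit below is log2(light/dark), the log2 ratio of the exposed over the dark sample on one array, so that a value of -1 means a light sample at 0.5 times the dark one. A probe was called where limma's test over all 2507 probes gave a Benjamini-Hochberg adjusted p under 0.05. Each such ratio also holds any dye bias of its probe, which a difference between lights does not. The median ratio of light signal to background ran from 2.47 on UV-B replicate 1 to 47.1 on UV-A replicate 2. On the 3 arrays numbered 3, the light signal was at least 1.5 times the background in 79.3% to 99.3% of the 135 empty spots. On the other arrays this share was 2.22% to 7.41%. Correlations between replicates over all probes were 0.573 to 0.772 in UV-B, 0.415 to 0.684 in UV-A and 0.379 to 0.388 in blue light. Weight 0 in the deposited files marked probe 139, a further TUA5 clone with 2 spots, and 1 spot of TUB6 probe 2329, which were not used. On no array did they exceed all empty spots, but neither did TUB6 probe 684, which was used. This comparison therefore does not set the unused spots apart.

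The 4 brightest TUB6 probes fell under UV-B, while 1 TUA5 probe fell under UV-A and 2 others under UV-B. Under UV-B, 4 of 9 TUB6 probes were called lower, by 1.23 to 1.92 on the log2 scale, and 2 of 9 TUA5 probes were called lower. UV-B called 24.7% of all probes, 13.9% as lower and 10.8% as higher. Under UV-A, 1 of 9 TUA5 probes and 0 of 9 TUB6 probes were called, where 3.19% of all probes were called and 2.07% as lower. In blue light, 0 of the 18 probes were called, where 3.47% of all probes were, and 4 of the 18 had an unadjusted p under 0.05, against 25.2% of all probes. The median over the 9 TUA5 probes was -0.13 in blue light, -0.62 in UV-A and -0.33 in UV-B, and that over the 9 TUB6 probes was 0.05, 0.01 and -0.86, while the median over all probes lay within 0.02 of 0 in each light.

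**Figure D1:**
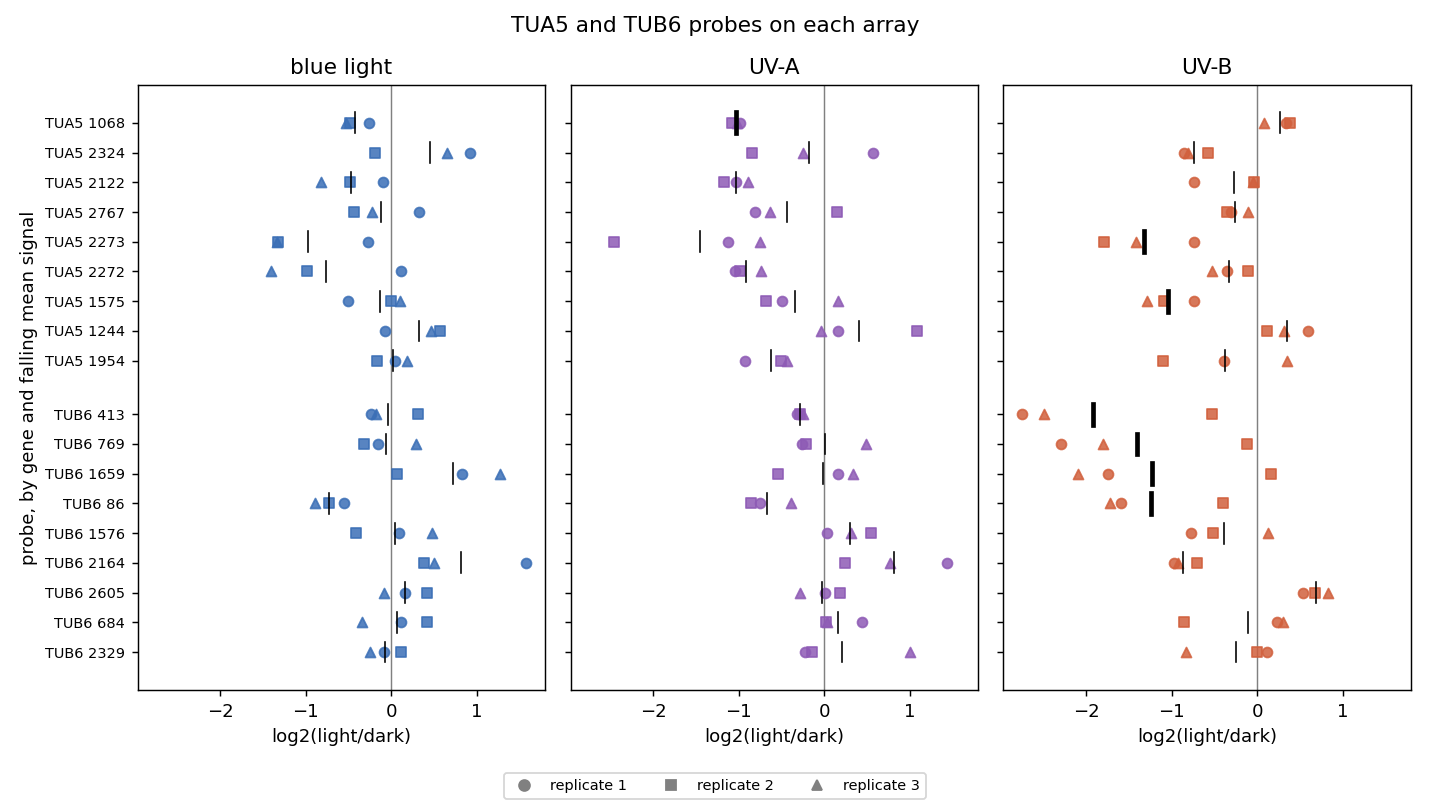
Each point is the log2(light/dark) of one probe on one array, with a panel per light and the replicate number as the marker, and the vertical bar is the mean of 3 arrays, drawn thick where the probe was called. The 4 thick TUB6 bars under UV-B lie between -1.92 and -1.23, with replicate 2 nearest to 0 in each.

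The brightest TUA5 probe, 1068, was lower under UV-A on all 3 arrays. In blue light it read -0.26, -0.48 and -0.53 on replicates 1, 2 and 3. In UV-A it read -0.99, -1.07 and -1.02, and in UV-B 0.34, 0.38 and 0.08. The UV-A arrays lay below all blue arrays, which lay below all UV-B arrays, and the 3 UV-A values lay close together. The mean change in UV-A was -1.03 ± 0.23 (SE, n = 3), a 2.04-fold fall (adjusted p = 0.0369), while the mean in blue light was -0.42 (adjusted p = 0.271) and in UV-B 0.27 (adjusted p = 0.451). Leaving out any UV-A array, blue replicate 2 or UV-B replicate 1 brought the adjusted p above 0.05, to at most 0.204, while the mean moved by at most 0.023 with any array left out. Before normalization, the signals over background were 2144 in light and 7140 in darkness on UV-A replicate 1, 21691 and 27526 on replicate 2, and 6950 and 17104 on replicate 3. Light was below darkness in each UV-A pair, by unequal amounts that the loess step brought together.

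**Figure D2:**
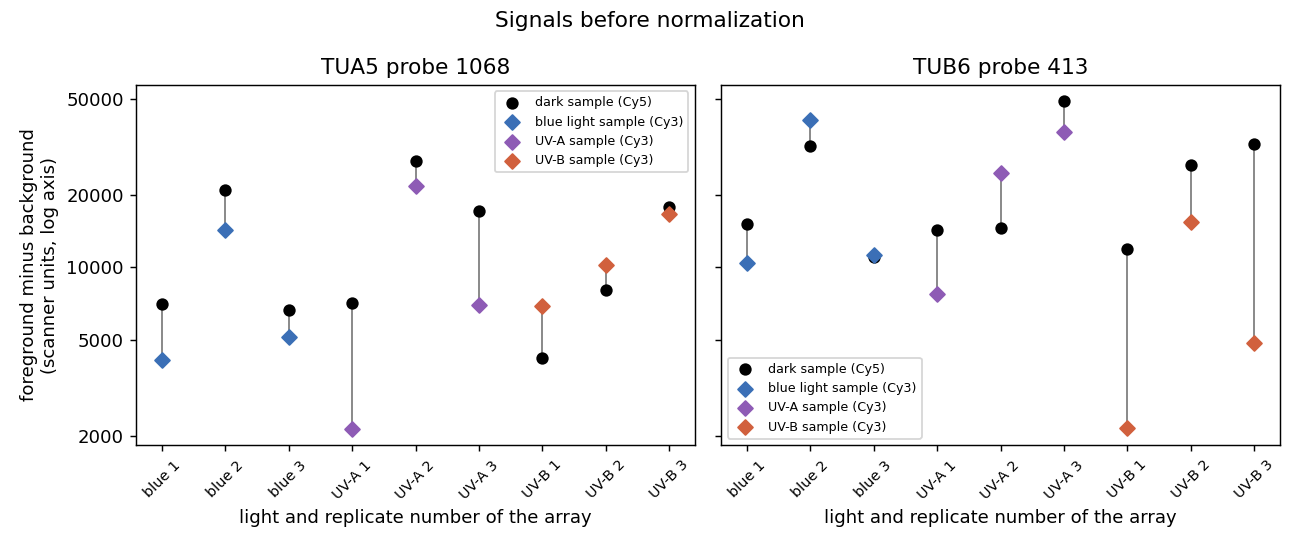
Foreground minus background on a log axis, in scanner units before normalization, for the brightest probe of each gene on the 9 arrays, with the exposed sample as a diamond and the dark sample of the same array as a black circle. For TUB6 probe 413 the UV-B diamonds lie at 2154, 15482 and 4858, under dark circles at 11966, 26568 and 32374.

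Most other TUA5 probes also read below darkness under UV-A. Probe 2122 read -1.03, -1.17 and -0.89 in UV-A, a mean of -1.03 ± 0.26 (adjusted p = 0.0563). Probe 2273 read -1.12, -2.46 and -0.76, a mean of -1.45 ± 0.37 (adjusted p = 0.0544), and probe 2272 read -1.04, -0.98 and -0.74, a mean of -0.92 ± 0.30 (adjusted p = 0.117). None of the 3 probes passed the test in UV-A, although all of their UV-A arrays lay below 0. With the replicate number as a block, probes 2122 and 2273 were called too (adjusted p = 0.0324 and 0.0106), which makes 3 of 9 TUA5 probes. In all, 5 of 9 TUA5 probes had every UV-A array below 0, against 26% of all probes, and 0 of 9 had every UV-A array above 0, against 24.1%. The exception in mean direction was probe 1244, at 0.40 in UV-A and 0.34 in UV-B. With only the UV-A arrays in the fit, 0 of 9 TUA5 probes were called lower in UV-A. The number was 2 with median centring and 4 with print-tip loess. It was also 4 with the authors' processed values, which may differ in more than the scaling. Over all probes UV-A called 28 higher and 52 lower, against 47 and 54 with print-tip loess and 54 and 65 with the authors' values.

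Under UV-B the TUA5 probes did not move as one. Of the 9, 6 had every UV-B array below 0, against 5 in UV-A, and 2 had every UV-B array above 0. The share over all probes is not given for UV-B, so these counts do not set TUA5 apart from other probes. Probe 2273 read -0.74, -1.79 and -1.41, a mean of -1.32 ± 0.37 and a 2.49-fold fall (adjusted p = 0.0224). Probe 1575 read -0.73, -1.09 and -1.29, a mean of -1.04 ± 0.27 and a 2.05-fold fall (adjusted p = 0.0161). Both are dim there: the UV-B sample was at least 1.5 times the background on only 1 of 3 arrays for each, while the dark sample was so on all 3, so these fold values depend on how background is treated. With plain background subtraction probe 1575 had a mean of -2.58 in UV-B. Neither call held without UV-B replicate 2 or without UV-B replicate 3, and that of probe 2273 did not hold on the authors' processed values, where its mean was -0.71 (adjusted p = 0.116). Probe 2324, measured by 4 spots, read -0.85, -0.57 and -0.81, a mean of -0.74 ± 0.32 (adjusted p = 0.111), and read 0.92, -0.20 and 0.65 in blue light. Its 3 UV-B arrays lay below its 3 blue arrays. The remaining TUA5 probes had UV-B means between -0.38 and 0.34 with adjusted p-values of 0.390 or above.

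In TUA5 under blue light, the means ran from -0.98 for probe 2273 to 0.46 for probe 2324. Probe 2273 read -0.28, -1.33 and -1.33, and its adjusted p was 0.139, 0.0394 with the replicate block and 0.290 with the block on the authors' values, where the mean was -0.43. Probe 2272 read 0.11, -0.99 and -1.41, so replicate 1 lay apart from the other arrays of this light. Probe 1068 was called lower on the authors' values with the block (-0.73, adjusted p = 0.0315), and not without it (adjusted p = 0.0990). The 3 TUA5 probes with every blue array below 0 compare with 21.1% of all probes.

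The 4 brightest TUB6 probes fell under UV-B and were called in neither of the other lights. Probe 413 read -0.24, 0.31 and -0.18 in blue light and -0.31, -0.28 and -0.25 in UV-A. In UV-B it read -2.75, -0.53 and -2.49, below every array of the other lights. The mean in UV-B was -1.92 ± 0.37 (SE, n = 3), a 3.79-fold fall (adjusted p = 0.00343, 95% interval -2.74 to -1.11). It is the only result among the 18 probes that was called in all 19 alternatives, with adjusted p-values of at most 0.0465. Its UV-B sample was 7.23, 44.7 and 31.6 times the background on the 3 arrays, so the low values are not at the detection limit.

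Probes 769, 1659 and 86 repeated this pattern across the UV-B arrays. Probe 769 read -2.29, -0.12 and -1.80, a mean of -1.40 ± 0.37 (adjusted p = 0.0184). Probe 1659 read -1.75, 0.16 and -2.09, a mean of -1.23 ± 0.41 (adjusted p = 0.0473), and probe 86 read -1.59, -0.39 and -1.72, a mean of -1.24 ± 0.29 (adjusted p = 0.0101). In each of the 4 probes UV-B replicates 1 and 3 were low, and replicate 2 lay within or near the range of the blue and UV-A arrays. Over the 348 probes that UV-B lowered, the median was -1.77, -1.25 and -2.19 on replicates 1, 2 and 3, so replicate 2 had the smallest median fall over that set too. Because the spread is pooled over all 9 arrays, the SEs and adjusted p-values do not use the spread within UV-B alone. With only the UV-B arrays in the fit, 2 of 9 TUB6 probes were called lower in place of 4.

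Single arrays decided the calls of 3 of these 4 probes. Without UV-B replicate 2 the UV-B means were -2.62 for probe 413, -2.04 for 769, -1.92 for 1659 and -1.66 for 86. Without replicate 1 they were -1.51, -0.96, -0.97 and -1.06 in that order, and without replicate 3 they were -1.64, -1.20, -0.79 and -0.99. In both of these settings 1 of 9 TUB6 probes was called lower in place of 4, and it was probe 413. The 3 arrays numbered 3 stand apart by their empty spots, and with arrays numbered 1 and 2 only, a choice made after seeing the data, 1 TUB6 probe and 0 TUA5 probes were called lower in UV-B, and 0 of the 18 in UV-A. Probe 413 then had a mean of -1.64 (adjusted p = 0.0462).

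**Figure D3:**
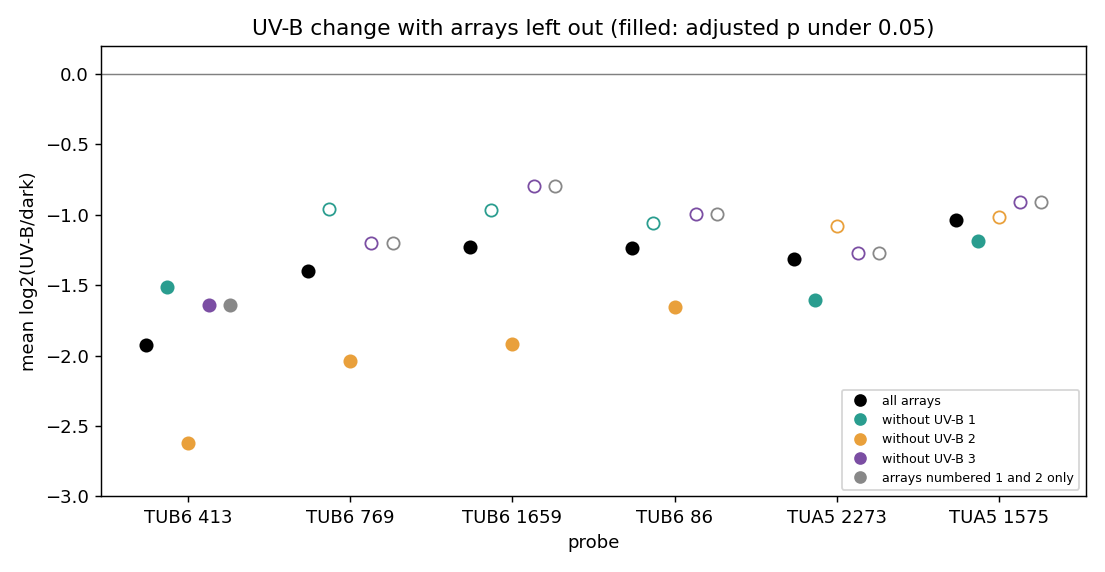
Mean log2(UV-B/dark) of the 6 member probes called in UV-B, with all arrays and with arrays left out, filled where the adjusted p was under 0.05. Probe 413 stays filled throughout, and the TUB6 values without UV-B replicate 2 are the lowest of each column, down to -2.62.

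The dimmer TUB6 probes gave a mixed picture under UV-B. Probe 2164 read -0.97, -0.70 and -0.92 in UV-B, against 1.58, 0.38 and 0.50 in blue light and 1.43, 0.24 and 0.77 in UV-A. All its UV-B arrays lay below 0 and all its other arrays above 0. The UV-B mean of -0.86 ± 0.31 missed the threshold (adjusted p = 0.0639) and passed it with the replicate block (adjusted p = 0.0301). Probe 2605 went the other way, with 0.54, 0.68 and 0.83 in UV-B, a mean of 0.68 ± 0.24 (adjusted p = 0.0599, and 0.0407 with the block). On the authors' processed values its mean was 0.07 (adjusted p = 0.790, and 0.752 with the block). Probe 1576 read -0.78, -0.52 and 0.12 (adjusted p = 0.346). Probes 684 and 2329 were the dimmest of the 18, with the UV-B sample at 1.5 times the background on 1 of 3 arrays each, and their UV-B means of -0.10 and -0.24 had adjusted p-values of 0.836 and 0.621.

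In UV-A and blue light no TUB6 probe was called. Probe 86 was the lowest in both, at -0.56, -0.73 and -0.89 in blue light (mean -0.73, adjusted p = 0.160) and -0.75, -0.85 and -0.39 in UV-A (mean -0.67, adjusted p = 0.230). Probe 2164 was the highest in both, at 0.82 in blue light (adjusted p = 0.144) and 0.81 in UV-A (adjusted p = 0.166). Probe 1659 read 0.82, 0.07 and 1.27 in blue light, all above 0, with a mean of 0.72 (adjusted p = 0.290). Blue light means of probes under one label thus lay on both sides of 0, none of them past the test.

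The lights were also compared with each other, where dye bias cancels. Since lights of a pair share no array, each difference stands on 6 arrays. UV-B against blue light called 3 of 9 TUB6 probes as lower, where 18.3% of all probes were called and 10.3% as lower, and 0 of 9 TUA5 probes. The differences were -1.89 ± 0.53 for probe 413 (adjusted p = 0.0308), -1.95 ± 0.58 for probe 1659 (adjusted p = 0.0382) and -1.68 ± 0.44 for probe 2164 (adjusted p = 0.0227). Probes 413 and 2164 had no overlap between the UV-B and blue arrays, while UV-B replicate 2 of probe 1659, at 0.16, lay above blue replicate 2, at 0.07. None of the 3 was called without blue replicate 1, UV-B replicate 1 or UV-B replicate 3, and 1 was without blue replicate 3 or with only the arrays of the lights compared. With 1 array left out the differences ran from -2.58 to -1.47 for probe 413, -2.64 to -1.51 for 1659 and -1.90 to -1.30 for 2164. On the authors' processed values probe 413 missed the threshold (-1.55, adjusted p = 0.0575). Of the TUA5 probes, 2324 came nearest in the main fit, with a difference of -1.20 ± 0.45 (adjusted p = 0.0826, and 0.0397 with the replicate block). On the authors' processed values, with or without the block, 1 of 9 TUA5 probes was called higher in UV-B than in blue light.

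UV-B against UV-A called 1 TUA5 probe as higher and 1 TUB6 probe as lower, where 6.62% of all probes were called, 2.03% as higher and 4.59% as lower. TUA5 probe 1068 was higher in UV-B by 1.29 ± 0.33 (adjusted p = 0.0375), and TUB6 probe 2164 was lower by 1.68 on the log2 scale, with a difference of -1.68 ± 0.44 (adjusted p = 0.0444). In both, the UV-B and UV-A arrays did not overlap. The call of probe 1068 was lost without any 1 of the UV-A or UV-B arrays or blue replicate 2, with differences of 1.24 to 1.39. That of probe 2164 was lost without any 1 UV-B array, UV-A replicate 1 or 3 or blue replicate 2, with differences of -1.96 to -1.37. Without UV-B replicate 2, 3 other TUB6 probes were called lower. The difference for TUB6 probe 413, -1.64 ± 0.53, had an adjusted p of 0.0857, and of 0.0310 with the replicate block. On the authors' processed values it was -1.38, with an adjusted p of 0.116. UV-A against blue light called 0 of 2507 probes in limma, where 80 (3.19%) had an unadjusted p under 0.05, and all 18 differences had adjusted p-values of at least 0.952.

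For the brightest probe of each gene, this gives an order of lights in which no step between neighbours passed the test in the main fit. TUA5 probe 1068 ran from UV-A through blue light to UV-B, and of its neighbours neither UV-A and blue light (difference -0.61, 95% interval -1.32 to 0.11) nor blue light and UV-B (difference 0.69, interval -0.03 to 1.40, adjusted p = 0.159) passed the test. TUB6 probe 413 ran from UV-B through UV-A to blue light. The step from UV-B to UV-A was -1.64 (UV-B minus UV-A, interval -2.80 to -0.49, adjusted p = 0.0857). The step from UV-A to blue light was -0.24 (UV-A minus blue, interval -1.40 to 0.91). Neither passed.

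Probes of one name were compared by the Pearson correlation of their log2(light/dark) over the 9 arrays, given as a description, since the arrays share 3 lights and each array its labelling. TUB6 probes 413, 769, 1659 and 86 correlated at 0.825 to 0.925 with each other, and probe 2164 correlated at 0.724 with 413. Probe 2605 ran against them, at -0.610 with 413 and -0.774 with 2164. Among TUA5 probes, 1068, 2122 and 2272 correlated at 0.641 to 0.747, and 1068 and 1575 at -0.604. Over all 36 TUA5 pairs the median was 0.11, over the 36 TUB6 pairs 0.30, over the 81 pairs of a TUA5 with a TUB6 probe -0.11, and over all pairs of the 2507 probes -0.002.

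**Figure D4:**
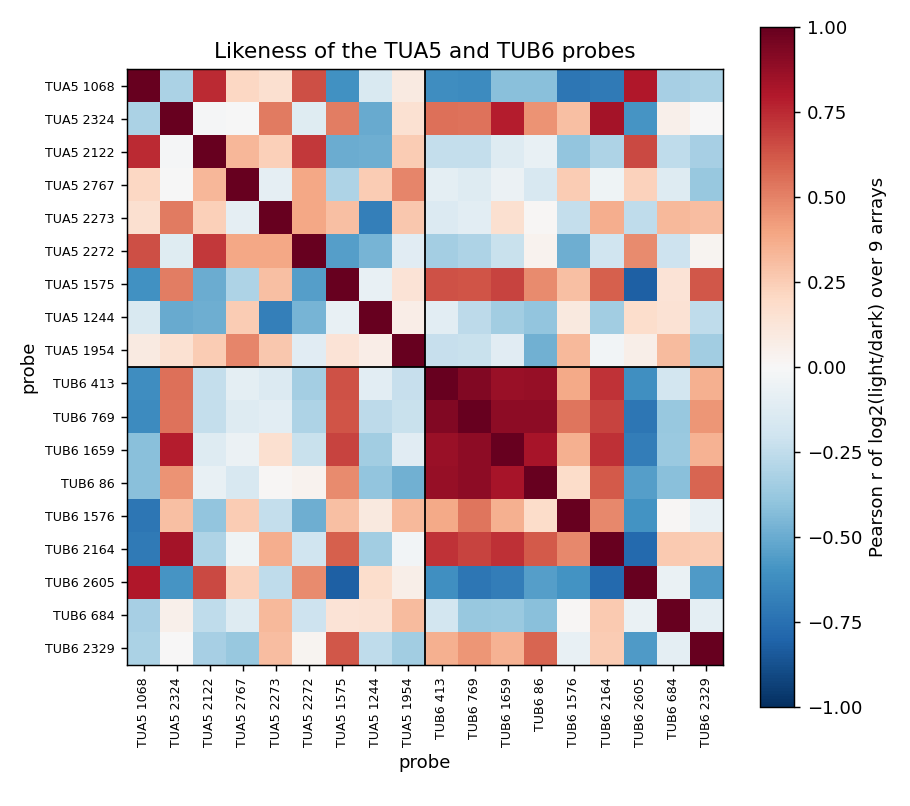
Pearson correlation of log2(light/dark) over 9 arrays between the 18 probes, in order of gene and falling signal, with black lines between TUA5 and TUB6. The block of probes 413, 769, 1659 and 86 stands out at 0.825 to 0.925, and pairs of one gene elsewhere range from -0.774 to 0.747.

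Some alpha- and beta-tubulin probes, picked here for their high values, correlated more with each other than with probes of their own name. Over the 81 pairs of a TUA5 with a TUB6 probe, values ran from -0.818 to 0.835. Their median was -0.11, with 47 pairs below 0, against a median of -0.002 over all pairs of probes. The picked pairs therefore do not show that TUA5 and TUB6 probes varied together as sets. TUA5 probe 1068 correlated at 0.803 with TUB6 probe 2605, and both read above 0 on all UV-B arrays. TUA5 probe 2324 correlated at 0.835 with TUB6 probe 2164, the highest value among the 81 pairs. The brightest probes of the genes, 1068 and 413, correlated at -0.624.

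Of the other tubulins, 8 names with 16 probes were on the array: TUA2, TUA3 and TUA6 for alpha-tubulin and TUB2, TUB3, TUB4, TUB7 and TUB8 for beta-tubulin. None of the 16 probes was called in blue light or UV-A. In UV-B, 4 were called lower and 1 higher, which is 31.2% of the 16 against 24.7% of all probes. By brightest probe, TUB8 read -1.39, -0.70 and -1.47, all below 0, with a mean of -1.18 ± 0.27 (adjusted p = 0.00802). TUA3 probe 74 read 1.14, 1.28 and 2.28, all above 0, with a mean of 1.57 ± 0.28 (adjusted p = 0.00230), while the second TUA3 probe, 1331, had a mean of -0.62 (adjusted p = 0.405). The further lower calls were TUA2 probe 2165 (-1.28), TUB2 probe 2486 (-1.10) and TUB7 probe 2289 (-0.81), each a further probe of a name whose brightest probe did not pass.

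The median UV-B value was -0.62 over these 16 probes, -0.86 over the TUB6 probes and 0.01 over all probes. Among brightest probes, TUA2 had a UV-B mean of -1.21 (adjusted p = 0.0611), TUB7 of -0.62 and TUA6 of 0.69, and TUB2, TUB3 and TUB4 lay between -0.31 and -0.15. Against blue light, UV-B values of TUB8 were lower by 1.39 on the log2 scale (difference -1.39, adjusted p = 0.0284), and those of TUA3 probe 74 were higher by 1.92 (adjusted p = 0.00895).

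**Figure D5:**
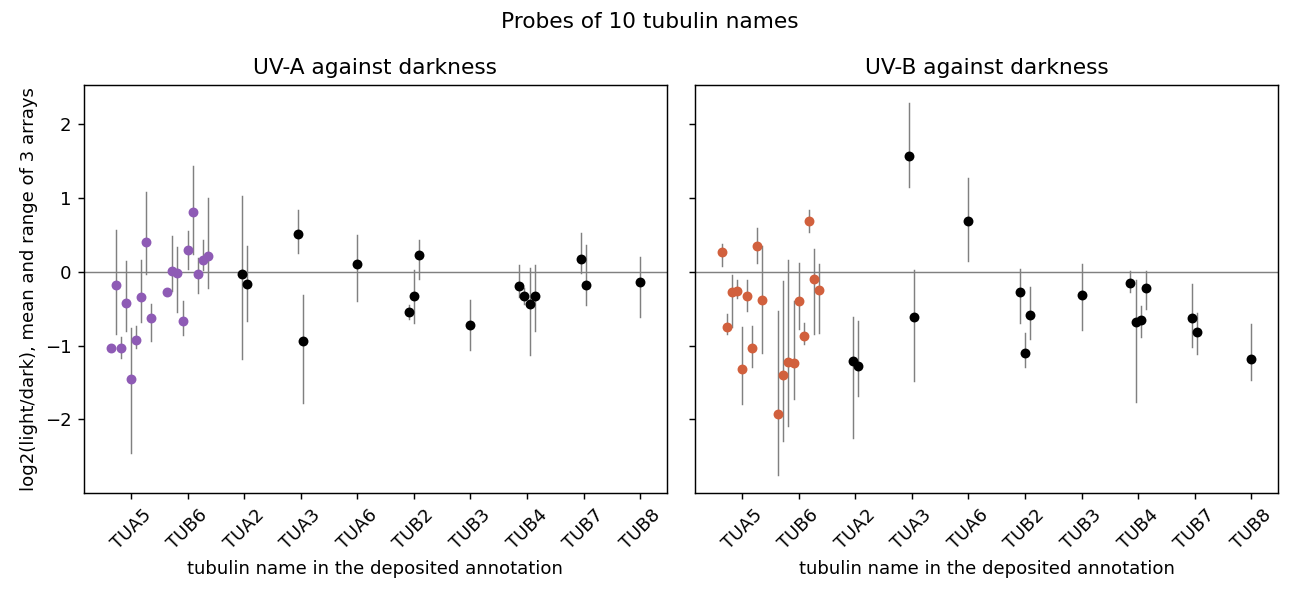
Mean log2(light/dark) of each tubulin probe (points) with the lowest and highest of its 3 arrays (lines), by name, in UV-A and UV-B, with TUA5 and TUB6 in colour. TUA3 holds the highest UV-B mean, 1.57, and TUB6 the lowest, -1.92.

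Other cytoskeleton and growth genes gave single calls. Actin, the other main filament of the cytoskeleton, and genes linked to it had 5 names. In UV-B ACT8 was higher by 1.09 ± 0.28 (adjusted p = 0.0154) by its brightest probe and not by its other probe (0.07), while ACT7 (0.30), the villin VLN2 (-0.28), which bundles actin filaments in Arabidopsis, AT3G07540 (0.13) and AT5G67470 (-0.02) did not pass. None of the 5 was called in blue light or UV-A. No probe matched the list of microtubule-linked genes, which named kinesins, katanin and tubulin folding cofactors among others. Of the cell cycle list, the brightest of 4 probes of CYC1BAT, a cyclin, fell in UV-B by 1.72 on the log2 scale (adjusted p = 0.00463). Its other 3 probes, at -0.06, 0.41 and 0.46, did not pass, so the probes of this name disagree, and CYCA3;4 had a mean of 0.83 (adjusted p = 0.0859).

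Of 18 cell wall genes, 3 were lower and 1 higher in UV-B by their brightest probe, which is 22.2% of them against 24.7% of all probes, and none was called by it in blue light or UV-A. Over all 58 probes of these genes, 4 were higher and 9 lower in UV-B, 2 higher and 2 lower in UV-A, and 1 higher in blue light. The lower ones by brightest probe were EXGT-A1 (-2.79, adjusted p = 0.00322) and TCH4 (-1.09), each with 2 further probes that did not pass, both of the xyloglucan endotransglucosylase family, which cuts and rejoins wall xyloglucan, and AT5G62360 (-1.46). ATXTH17, of the same family, was higher (0.77), and of its 8 other probes 1 was higher and 1 lower. Each call of TUB8, ACT8, TCH4, AT5G62360 and ATXTH17 in UV-B was lost without at least 1 of the UV-B arrays, and those of EXGT-A1, CYC1BAT and TUA3 were lost in none of the 19 alternatives. The cellulose synthase subunits CESA1 (0.39) and CESA6 (-0.08), KOR1 (-0.44) and COB (0.38), which take part in cellulose deposition, did not pass in UV-B by their brightest probe. Nor did the brightest probes of CSLD3 (0.83), XTH9 (0.19), ATXTH18 (-0.06), MERI5B (-0.97), ATEXLA2 (0.19), AGP9 (-0.33), AGP15 (0.31), AT5G19730 (0.67), AT5G47500 (-1.18) or AT5G62350 (-0.63). Among further probes of these names, XTH9 had 4 lower and 1 higher of 11, ATEXLA2 had 1 lower of 5 and AT5G62350 had 1 higher of 4.

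The genes most like the brightest probes were taken from 1006 other names, by Pearson correlation over the 9 arrays. For TUA5 probe 1068 they were AT5G03850 (0.958) and AT4G31985 (0.886), annotated as ribosomal constituents, the glutathione transferase ATGSTU13 (0.893), the peroxidase PRXCB (0.881) and AT4G13430 (0.870). Their UV-B means ranged from 0.23 to 3.00 and their UV-A means from -1.15 to -0.40. For TUB6 probe 413 they were AT5G05800 (0.973), AT4G08950 (0.970), AT1G04910 (0.961), AT5G36100 (0.952) and AT5G51550 (0.951), all annotated as unknown proteins. All 5 were called lower in UV-B, by means of -2.62 to -1.33, and none in UV-A. Over all probes, 13.9% were called lower in UV-B. Both sets were picked for likeness over these 9 arrays, so their values in each light are not a separate result.

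Few markers of the peeled layer were on the array. LHCB2.1, a chlorophyll-binding antenna protein of green cells, was higher in blue light by 1.24 by its brightest probe (adjusted p = 0.0494, a call lost without any 1 of the blue arrays). This probe had means of 0.63 in UV-A and 0.62 in UV-B that did not pass. The other LHCB2.1 probe, 349, had a mean of 0.25 in blue light (adjusted p = 0.564). CER3, of epidermal wax synthesis, and ATPP2-A14, a phloem lectin-like gene, were called in no light, with UV-B means of -0.19 and 0.15. The aquaporins PIP1B (-1.75) and PIP3 (-2.09) were called lower in UV-B, as were 4 of 9 TUB6 probes, and a link between them was not tested. No suberin marker was matched. The part of the tissue's cell makeup in the tubulin values was not tested.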

How the data were processed

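The authors' deposited array files hold foreground and background intensity per spot for both channels, and a weight score of 0 or 1, deposited without a stated meaning and read as marking spots to leave out (5300 of 6272 spots were used). The authors also deposited processed log2 values of the same arrays, of unstated normalization. These run as dark over light (r = 0.854 to 0.963 with log2(light/dark) after turning, column medians -0.165 to 0.047, mean 0) and served as an alternative over 2506 probes. The sources used here do not name the scanner or its software, and the dark against dark arrays of the design text were not analysed here.

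Intensities were corrected with normexp (offset 50), normalized by loess within each array, and averaged over the spots of a probe, in R 4.3.3 with limma 3.58.1. Probes had to reach 1.5 times the background in 1 channel on at least 3 arrays, a filter that removed none. The limma model had 1 mean per light and 9 arrays, with Benjamini-Hochberg adjustment over 2507 probes, two-sided. SEs, intervals and adjusted p-values are limma's, with the spread pooled over the 9 arrays. In tests on simulated data of UV-B against darkness with 200 of 2507 probes changed, 33 were called at a log2 change of 1 and 195 at a change of 2, with 0 and 9 other calls. The simulated noise was independent between arrays, with 1 spread per probe and no dye bias. These counts therefore do not show how many false calls the real data give.

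Same-numbered arrays of different lights deviated together (9 pairs, r = 0.105 to 0.622, against -0.625 to 0.0591 for 18 other pairs). The block on replicate number is therefore printed where it changed a call. The members, the gene lists and the naming rule (every TUA5 and TUB6 probe, list genes by brightest probe, 5 most correlated names) were chosen with earlier results of these data known. No sequences or turnip coordinates are given. Figures were drawn in matplotlib. The number of arrays limits the precision.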

Additional observations from a re-analysis of the deposited data

Results flagged for a closer look

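In 5 results the change against darkness differed between lights by the test of the difference itself. UV-B lay below blue light in TUB6 probe 413 (-1.89), TUB6 probe 1659 (-1.95) and TUB6 probe 2164 (-1.68). UV-B lay below UV-A in TUB6 probe 2164 (-1.68) and above UV-A in TUA5 probe 1068 (1.29). The UV-B sample of probe 2164 was dim, near 1.5 times the background on replicates 1 and 2. All 5 are differences of mean log2(light/dark) in limma. With arrays numbered 1 and 2 only, none of the 5 passed, at adjusted p-values of 0.164, 0.259, 0.0886, 0.150 and 0.0845 in that order. With the replicate block all 5 passed, but each call was lost in some fits with 1 array left out: none of the 3 against blue light was called without blue replicate 1, UV-B replicate 1 or UV-B replicate 3, and neither of the 2 against UV-A without any 1 of the UV-B arrays.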

How the results depend on the processing

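The number of probes called moved with the settings. In blue light it was 87, against 49 with plain background subtraction, 18 with the authors' values, 404 with the replicate block, 284 with both, 20 with only that light's arrays and 0 with arrays numbered 1 and 2 (375 at an unadjusted p under 0.05), and 0 to 102 with 1 array left out. In UV-A it was 80, against 279 with the replicate block, 423 with the authors' values and block, 32 with arrays numbered 1 and 2, and 0 to 133. In UV-B it was 620 (272 higher, 348 lower), against 1069 with the authors' values and block and 271 to 737 with 1 array left out; the authors' values without the block gave 418 higher and 344 lower, with the median over all probes up by 0.11. UV-B against blue light called 460, against 723 with the block, 937 with the authors' values and block, 293 with only those arrays, 186 with arrays numbered 1 and 2, and 218 to 460. UV-B against UV-A called 166, against 260 with the authors' values (112 higher and 148 lower, against 51 and 115), 379 with the block, 623 with both, 81 with arrays numbered 1 and 2, and 75 to 278. UV-A against blue light called 0 in every setting, one array left out included (0 to 0).

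Of 108 results for the 18 probes, 12 were called, and none of these changed direction in 19 alternatives. A further 19 were called in some alternative only, and 77 in none. Of those 77, 42 changed sign in at least 1 alternative, so no direction is claimed for them. The block added calls without losing any of the 12. Of 11 list genes called against darkness, PIP1B, PIP3, EXGT-A1, CYC1BAT and TUA3 were called in all 19, and LHCB2.1 in 5. The causes were not tested.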
